A study of Mus musculus with 5 samples.

Results

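The genes described here build and run the primary cilium, the single non-motile cilium that most cells of an embryo carry. Members were taken by symbol from the deposited table: all genes named Ift, Bbs or Nphp with a number, Tctn1 to Tctn3, and 13 further genes of ciliary transport and of the ciliary gate. This gave 41 of 19699 gene entries. The tissue was the main airway part of the mouse embryo at E13.5, dissected with trachea and lung together, and its RNA was sequenced in bulk. The mutants, 2 libraries, had Prmt5 knocked out in lung epithelial cells per the growth protocol, while the genotype label says knockdown. The labels also carry a protocol for turning cultured cells into adipocytes, which does not match this tissue and was set aside. The design text names Shh together with Prmt5 in the mutant embryos, without spelling out an allele, and Shh regulatory sequence is commonly used to drive Cre in this epithelium. The 3 controls are labelled WT and described as littermates. The pregnant females of the study are given as C57 mice, and the number of embryos behind a library is not stated, so a p-value here speaks of the scatter among libraries, part of which may be technical. Cells outside the epithelium are not a target of the knockout and were sequenced with it, and in such bulk tissue fewer cells of a type and less RNA per cell cannot be told apart.

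A cilium makes no protein of its own, so its parts are carried in by intraflagellar transport (IFT). Trains of IFT-B and IFT-A complexes move to the tip by kinesin-II and return by the ciliary cytoplasmic dynein, and the BBSome rides on them to move membrane proteins. The transition zone at the base, built from the MKS, B9 and nephrocystin proteins, decides what enters and leaves. In the embryonic lung and trachea, mesenchymal cells receive the Hedgehog signal through this cilium, and the same transport genes are used when airway cells make motile cilia.

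Prmt5 itself, an arginine methyltransferase, gave 23.7 and 20.1 FPKM in mutant tissue, beside 28.7, 26.4 and 25.8 FPKM in control tissue. Both mutants were below the controls, and the gene did not pass the test described next (log2 change -0.29, limma adjusted p = 0.234). Library depth was 15652503 to 18682463 reads. Xist lay at 0.0673 to 0.289 FPKM in mutants and 57.3 to 115 FPKM in controls, while Ddx3y, a Y-linked gene, lay at 10.8 to 11.96 FPKM in mutants and 2.54 to 9.91 FPKM in controls. The controls thus held both Xist and Y-linked RNA, the mutants almost no Xist. Both genes separated the groups, so sex and genotype cannot be told apart here. A fit with the Y-linked genes as a covariate called 0 of the 41 members, as did the fit without it. It called 131 of 12838 genes in all, against 303 without the covariate, so its count of 0 adds little.

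None of the 41 genes passed the test between mutants and controls. The test was limma on log2(FPKM + 1) over 12838 genes with at least 1 FPKM in at least 2 libraries, at an adjusted p of 0.05 (Benjamini and Hochberg). FPKM counts the fragments of a gene per kilobase of its length, scaled to the fragments of the library. All 41 passed the filter on low values, so none was left out. Over all genes tested, 2.36% were past that threshold (303 of 12838), 0.989% higher and 1.37% lower in the mutants. The limma voom method on reads recovered from the FPKM steps also called 0 of 41, where it called 4.79% of all genes. Before adjustment, p was under 0.05 for 1 member, Bbs2, which is 2.44% of the list, and for 18.9% of all genes tested. The median log2 change of the members was -0.03, with 27 below 0 and 14 above, and that of all genes tested was -0.06. That split depends on the scaling, with 17 below and 24 above under median ratio scaling, 14 and 27 under quantile normalization, and all 41 below under TPM, where all genes tested had a median of -0.59. In size, regardless of sign, the median change was 0.0861 for members and 0.158 for all genes tested, while the median standard errors were 0.145 and 0.142.

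The intervals limit how large a change in the whole tissue could have been missed. They set no such limit for the epithelium alone, which was sequenced together with other cells. For each of the 41 members the 95% interval of the log2 change lay between -1 and 1, so that a 2-fold difference in either direction was outside it on the log2(FPKM + 1) scale. The lowest bound was -0.76, of Bbs2, and the highest 0.56, of Tctn2. For 37 of the 41 the interval also lay within a 1.5-fold difference either way. These are intervals for single genes and do not hold for all 41 at once, and the added 1 FPKM shrinks the changes of the low members. On recovered reads, where no such value is added in FPKM, the lowest bound was -0.93 and the highest 0.69. The 2-fold limit did not hold under TPM, where bounds ran from -2.25 to 1.04, nor without mutant 1, where the lowest was -1.01.

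**Figure D1:**
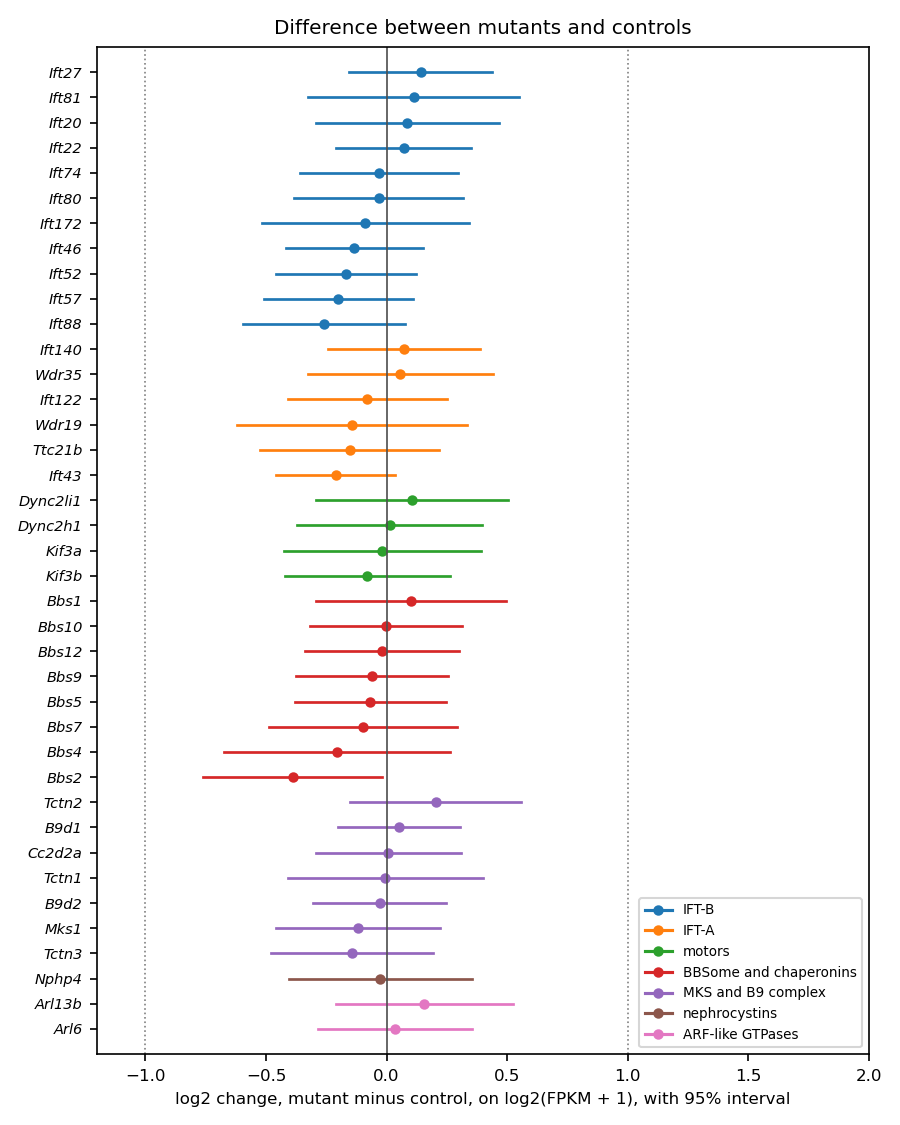
Log2 change of 39 members, mutant minus control on log2(FPKM + 1), as a point with its 95% interval from limma, coloured by role; the dotted lines mark a 2-fold difference. The 39 intervals drawn lie between the dotted lines, and that of Bbs2 alone does not reach 0.

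Many cilium genes share a promoter element, the X-box, to which RFX transcription factors bind as an inverted repeat. It was searched for because it is sequence that the members could share without the symbols having chosen it. RefSeq promoters (GRCm38.p6, 250 bases before to 50 after the start) were matched by symbol for 35 of the 41 members, and 6 had no entry, among them Dync2li1, Ift122, Ift80 and Ift81. The core GTTGCC, read on either strand, was in the promoter of 19 of 35 members (54.3%, exact Clopper-Pearson 95% interval 36.6% to 71.2%) and of 14.1% of all 27025 genes with a promoter. The spaced repeat, GTNGCC followed after 1 to 3 bases of any kind by GGNNAC and read on either strand, was in 9 of 35 (25.7%, 12.5% to 43.3%) and in 2.30% of all genes. The motifs overlap, since a spaced repeat can hold the core, and 7 members had both. A match is a description of letters and not a measured binding site. For 6 members a spaced repeat lay wholly before the RefSeq start. GENCODE M21 starts Ift57 earlier, at base 49699233, so the second repeat of Ift57 lies inside that gene model. These stretches are shown because they hold the shared element, 5′ to 3′ in the direction of the gene, with the repeats in capitals.
Bbs7 (chr3:36613477-36613530, minus strand): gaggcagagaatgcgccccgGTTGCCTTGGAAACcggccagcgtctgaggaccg
Ift22 (chr5:136908067-136908149, plus strand): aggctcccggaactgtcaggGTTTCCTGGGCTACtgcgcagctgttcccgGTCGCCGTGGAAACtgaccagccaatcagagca
Ift57 (chr16:49699187-49699266, plus strand): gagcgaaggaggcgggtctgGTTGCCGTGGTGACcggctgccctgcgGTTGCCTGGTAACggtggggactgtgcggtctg
Mks1 (chr11:87853171-87853214, plus strand): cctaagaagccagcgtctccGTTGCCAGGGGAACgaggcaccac
Tctn2 (chr5:124598667-124598720, plus strand): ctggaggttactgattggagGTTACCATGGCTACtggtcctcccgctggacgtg
Tctn3 (chr19:40612339-40612391, minus strand): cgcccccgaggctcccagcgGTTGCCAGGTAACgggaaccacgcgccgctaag

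Ift22 and Ift57 each held 2 spaced repeats in these stretches. The repeats began 121 bases before the start in Bbs7, 24 in Mks1, 62 in Tctn2 and 140 in Tctn3, while those of Ift22 began at 63 and 33 and those of Ift57 at 87 and 60. In mutants against controls, the median log2 change was -0.02 over the 19 members with the core and -0.07 over the 16 with a promoter and no core. It was -0.10 over the 9 members with a spaced repeat. Ift57 and Tctn2, both with a repeat shown above, stood on opposite sides of 0, at -0.20 and 0.20, neither past the threshold.

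The members lay at moderate levels. Their means over the 5 libraries ran from 1.54 FPKM for Nphp4 to 31.7 FPKM for Ift20, with a median of 6.16 FPKM against 8.08 FPKM for all genes tested. Only Ift20, Ift27 and Ift43 were above 20 FPKM, and they were the 3 highest members in each of the 5 libraries. Nphp4 was the lowest in each of the 5. Recovered reads per member and library ran from 125 to 1485. Between the highest and the lowest library, a member differed by 1.14-fold (B9d1) to 1.77-fold (Wdr19), with a median of 1.37-fold. No member thus spanned a 2-fold range over the 5 libraries, whatever the genotype.

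**Figure D2:**
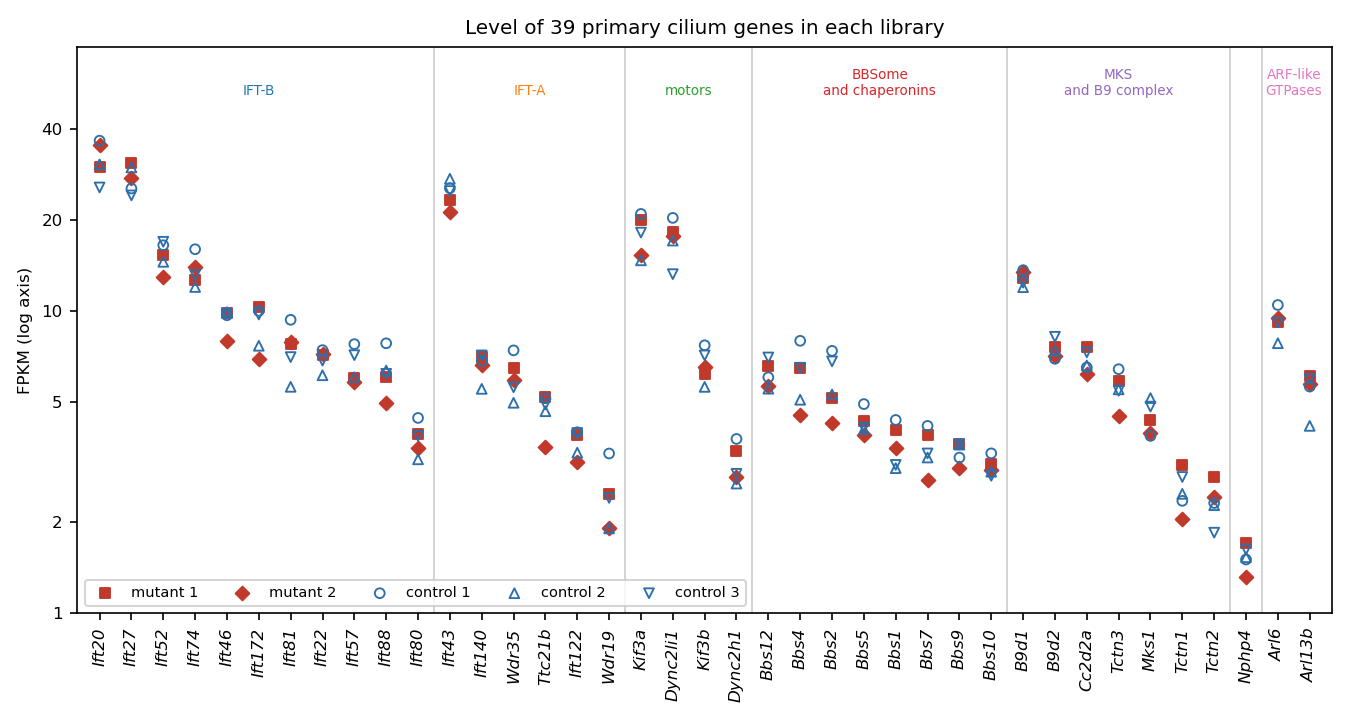
FPKM of 39 members in each library on a log axis, ordered by role and by mean level; filled red symbols are the 2 mutants and open blue symbols the 3 controls, and the role of Nphp4, a nephrocystin, carries no label. The symbols of a gene lie close together, and Ift20, Ift27 and Ift43 stand highest.

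IFT-B carries cargo such as tubulin towards the tip, and 11 of its genes are members. None passed, the median log2 change was -0.03, and the changes ran from -0.26 to 0.14. Ift88 (chromosome 14, 57424062 to 57517936, GRCm38), a core subunit whose loss abolishes cilia in mice, gave 6.05 and 4.98 FPKM in mutant tissue, beside 7.83, 6.36 and 6.20 FPKM in control tissue. Both mutants lay below all controls, by a margin smaller than the spread of the controls (log2 change -0.26, SE 0.14, limma adjusted p = 0.388). Ift57, a peripheral subunit of the complex, had groups that did not overlap by a narrow margin, as mutant 1 was at 6.03 FPKM, and control 2, the lowest control, at 6.04 FPKM (log2 change -0.20, limma adjusted p = 0.476).

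Ift27, a small GTPase that lets the BBSome leave the cilium, gave 31.0 and 27.6 FPKM in mutant tissue, beside 25.5, 29.9 and 24.2 FPKM in control tissue. The groups overlapped (log2 change 0.14, SE 0.13, limma adjusted p = 0.614). Ift20, which also works at the Golgi where ciliary membrane proteins are sorted, gave 30.0 and 35.5 FPKM in the mutants. Its controls spanned that range and more, at 36.7, 30.6 and 25.7 FPKM. Ift80, the lowest of the complex, gave 3.92 and 3.51 FPKM against 4.43, 3.23 and 3.86 FPKM, and the groups overlapped. Ift52, Ift74, Ift172, Ift81, Ift46 and the small GTPase gene Ift22 had log2 changes of -0.17, -0.03, -0.09, 0.11, -0.13 and 0.07, and their groups overlapped too. Ift81 and Ift74, which together bind tubulin, were on opposite sides of 0 on this scale, and with voom on recovered reads, at 0.12 and -0.04. That depends on the scaling. Both were above 0 under median ratio scaling, at 0.19 and 0.05, and under quantile normalization, at 0.19 and 0.03.

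IFT-A turns trains back from the tip and brings membrane receptors in. Its 6 genes had a median log2 change of -0.11, from -0.21 to 0.07, and none passed. Ift43 (chromosome 12, 86082541 to 86162459, GRCm38) gave 23.4 and 21.3 FPKM in mutant tissue, beside 25.6, 27.5 and 25.0 FPKM in control tissue. No mutant reached the lowest control, and the mean difference was -14.1% (log2 change -0.21, SE 0.11, limma adjusted p = 0.339). The exact permutation test on the FPKM, two-sided on the difference of means, reached p = 0.1, which is the lowest possible with 10 splits. Wdr19, the lowest of the complex, gave 2.48 and 1.91 FPKM in mutant tissue, beside 3.38, 1.91 and 2.41 FPKM in control tissue. Control 1 stood above the other libraries for this gene, and the groups overlapped. Ttc21b, Ift122, Ift140 and Wdr35 had log2 changes of -0.15, -0.08, 0.07 and 0.06.

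The 4 motor genes had a median log2 change that rounded to 0, and none passed. Kif3a (chromosome 11, 53567379 to 53601967, GRCm38), a motor subunit of kinesin-II, gave 20.1 and 15.4 FPKM in mutant tissue, beside 21.0, 14.7 and 18.2 FPKM in control tissue. The mutants differed from each other by more than the group means did. The log2 change was -0.02, with a 95% interval from -0.42 to 0.39 (limma adjusted p = 0.977). Its partner Kif3b had a log2 change of -0.08. Dync2h1, the heavy chain of the return motor, gave 3.45 and 2.83 FPKM in mutant tissue, beside 3.78, 2.69 and 2.89 FPKM in control tissue. Its log2 change was 0.01, with an interval from -0.37 to 0.40. Dync2li1, the light intermediate chain, gave 18.4 and 17.7 FPKM in the mutants, between controls at 20.4, 17.1 and 13.3 FPKM. On this scale per length the light intermediate chain lay above the heavy chain in every library. The lengths behind these FPKM differ from GENCODE M21, at 1324 against 1869 bases for Dync2li1 and 16161 against 16348 for Dync2h1.

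The BBSome and its chaperonins, 8 genes, gave the member with the smallest p, and 7 of the 8 changes were below 0, against 3 of 8 under median ratio scaling, 2 of 8 under quantile normalization and 2 of 8 without mutant 2. Bbs2 (chromosome 8, 94067954 to 94098928, GRCm38), a subunit of the BBSome core, gave 5.15 and 4.26 FPKM in mutant tissue, beside 7.39, 5.30 and 6.82 FPKM in control tissue. Both mutants lay below all controls, but mutant 1 was close to control 2. The means were 4.70 ± 0.626 (SD, n = 2) and 6.504 ± 1.08 FPKM (SD, n = 3), a difference of -27.7% (log2 change -0.39, SE 0.16, limma adjusted p = 0.243). Over the 16 alternatives its adjusted p ran from 0.139, without control 2, to 0.727, without mutant 2, and its log2 change stayed below 0.

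The other 7 genes of this role had overlapping groups. Bbs12, a chaperonin-like protein that helps the BBSome assemble and by its mean the highest of this role, gave 6.57 and 5.64 FPKM in mutant tissue, beside 6.04, 5.54 and 7.03 FPKM in control tissue. Bbs10, a chaperonin-like protein too and the lowest of the role, gave 3.11 and 2.97 FPKM against 3.38, 2.94 and 2.85 FPKM. For Bbs10 the log2 change rounded to 0, with an interval from -0.32 to 0.31. The subunits Bbs4, Bbs1, Bbs7, Bbs5 and Bbs9 had log2 changes of -0.20, 0.10, -0.10, -0.07 and -0.06. The change of Bbs2 was the largest of the 8 in size, without passing the test.

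Of the MKS and B9 genes of the transition zone, 7 are members, and their median log2 change rounded to 0. Tctn2 (chromosome 5, 124598749 to 124627738, GRCm38), a tectonic of the ciliary gate, gave 2.82 and 2.42 FPKM in mutant tissue, beside 2.32, 2.28 and 1.85 FPKM in control tissue. It was the 1 member with both mutants above all controls, with a mean difference of 22.1% (log2 change 0.20, SE 0.15, limma adjusted p = 0.534, exact permutation p = 0.1). Mutant 2 was close to control 1. Of the other tectonics, Tctn3 had a log2 change of -0.14, and Tctn1 gave 3.11 and 2.05 FPKM in the mutants, on either side of controls at 2.36, 2.48 and 2.83 FPKM. Tctn1 shares 25.5% of its exon bases with Hvcn1 on the opposite strand, and without strand their reads cannot be told apart. B9d1, a B9-domain protein and the steadiest member, gave 12.9 and 13.48 FPKM in mutant tissue, beside 13.7, 12.01 and 12.4 FPKM in control tissue. Its partner B9d2, Cc2d2a and Mks1 had log2 changes of -0.03, 0.01 and -0.12.

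The nephrocystins, named for a cystic kidney disease, link the gate to the membrane. Nphp4, which by its mean was the lowest of all members, gave 1.71 and 1.32 FPKM against 1.51, 1.53 and 1.63 FPKM. The groups overlapped, and the controls lay between the mutants (log2 change -0.03, SE 0.16, limma adjusted p = 0.958).

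The ARF-like GTPases act on ciliary membrane proteins. Arl13b, which shapes the ciliary membrane and is a common marker of cilia, gave 6.11 and 5.73 FPKM in mutant tissue, beside 5.63, 4.17 and 5.97 FPKM in control tissue. The groups overlapped, and control 2 was lowest (log2 change 0.16, SE 0.16, limma adjusted p = 0.654). Arl6, which recruits the BBSome to membranes, gave 9.20 and 9.50 FPKM against 10.5, 7.83 and 9.18 FPKM, with a log2 change of 0.03.

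In all, the groups did not overlap for 6 of the 41 members, or 14.6%, against 37.6% of all genes tested. Mutants were lower for 5 members, among them Bbs2, Ift43, Ift88 and Ift57, where 24.4% of all genes tested were lower in this way, and higher for Tctn2 (13.2% of all genes).

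The members also varied between libraries of 1 genotype. Control 1 was the highest library for 24 of 41 members (58.5%), while it was the highest for 28.6% of all genes tested. Mutant 2 was the lowest for 19 members and control 2 for 15, against 41.1% and 14.2% of all genes tested. Relative to the control mean on log2(FPKM + 1), the median of the members was 0.13 in control 1, -0.12 in control 2 and 0.01 in control 3, and 0.04 and -0.13 in mutants 1 and 2. The low value of mutant 2 was close to that of all genes tested in this library, at -0.12. For all genes tested, controls 1 and 2 were at 0.01 and -0.03, so the gap between these 2 controls was wider for the members. As a share of the reads of a library, the 41 members took 0.139% and 0.121% in the mutants and 0.147%, 0.122% and 0.132% in the controls.

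**Figure D3:**
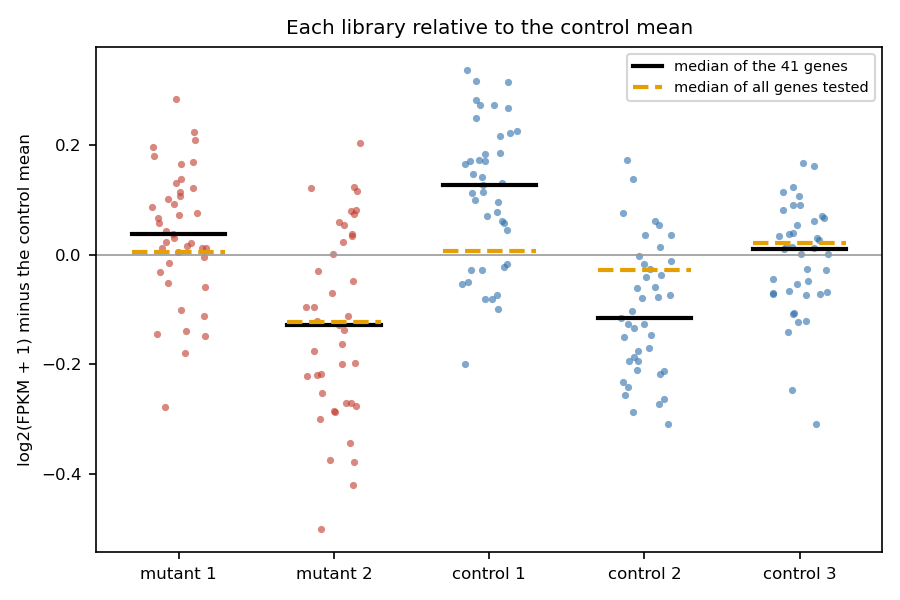
For each library, the log2(FPKM + 1) of each member minus its control mean (points), the median of the members (black) and that of all genes tested (dashed orange). Control 1 is high at 0.13, and mutant 2 and control 2 are low at -0.13 and -0.12.

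Control 1 also stood apart in the sum of epithelial markers. The summed level of 8 epithelial markers, Epcam, Cdh1, Krt8, Krt18, Krt19, Nkx2-1, Foxa2 and Spint2, was 617 FPKM in control 1, 301 and 235 FPKM in controls 2 and 3, and 233 and 230 FPKM in the mutants. All 8 were above 0 in every library, as were the mesenchymal markers. None of the 8 passed the test, where 2.36% of all genes tested did. Both mutants still lay below all controls for Epcam, Cdh1, Krt8, Foxa2 and Spint2, or 5 of the 8. Over all genes tested, 24.4% were lower in this way. Krt18, Krt19 and Nkx2-1 overlapped. Krt19 was at 43.0 and 40.6 FPKM in the mutants against 93.3, 26.6 and 25.3 FPKM, and Nkx2-1 was highest in control 2. The 6 skeletal muscle markers summed to 62.6 to 150 FPKM in the mutants and 296 to 691 FPKM in the controls, with 4 of 5 tested past the threshold and lower. The 6 neural markers summed to 34.9 to 47.8 and 58.8 to 80.3 FPKM, with 1 of 6 past it and lower. Of 5 mesenchymal markers 1 passed, Tbx4, higher. The sums, mostly of Col1a1 and Col3a1, were 1053 to 1268 FPKM in mutants and 1293 to 1663 FPKM in controls. The list split in direction. For Tbx4 and Foxf1 both mutants lay above all controls, with log2 changes of 1.02 and 0.80. For Col1a1 and Col3a1 they lay below all controls, with log2 changes of -0.37 and -0.30. Pdgfra overlapped, with a log2 change of -0.30. Of 4 cartilage markers 2 were tested and 1 passed, lower, with sums of 32.7 to 37.1 and 41.6 to 56.0 FPKM. Mesothelial sums, mostly of Upk3b, were 49.9 to 72.5 FPKM in mutants and 8.66 to 38.6 FPKM in controls, with 0 of 3 past the threshold. Upk3b and Wt1 had both mutants above all controls, while Msln overlapped, with a log2 change of -0.56. The sums of endothelial, macrophage, erythroid and cell cycle genes overlapped between the groups, with 0 past the threshold among the 5, 3, 4 and 6 tested. Within these lists, groups did not overlap for Emcn, Hbb-y and Cdk1, higher in the mutants, and for Alas2, lower. What part these shifts have in the levels of the members was not tested.

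Of 68 other genes of the primary cilium, chosen by known role, 64 were tested and 0 passed with limma, where 2.36% of all genes tested did. At such a share a list of this size would hold few calls. The median log2 change of the 64 was -0.04. Before adjustment 3 of the 64 had a p under 0.05, where 18.9% of all genes tested did. The voom fit on recovered reads called 0 of the 64 as well, against 4.79% of all genes. Groups did not overlap for 16 of the 64, against 37.6% of all genes tested. The 3 with the smallest p were Rab3ip, Ahi1 and Rfx3, and both mutants lay below all controls for each. Rab3ip, the activator of the GTPase that brings membrane to the cilium, gave 8.61 and 7.13 FPKM against 10.9, 9.37 and 10.8 FPKM (log2 change -0.36, SE 0.13, limma adjusted p = 0.189). Ahi1, a protein of the transition zone, gave 4.50 and 3.51 FPKM against 5.59, 5.11 and 5.66 FPKM (log2 change -0.37, limma adjusted p = 0.196).

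By role, 16 other transition zone genes had changes of -0.40 for Tmem231 to 0.19 for Tmem237, with 13 below 0 and 3 above. That split is on the FPKM scale, where all genes tested had a median of -0.06, and was not counted under other scalings. The 17 basal body genes had a median of -0.04, and the 7 genes for lipidated cargo the same. The 6 other BBSome genes had a median of 0.01, with Lztfl1, which restrains BBSome traffic, at -0.30 and Ccdc28b at 0.25. The 6 other motor genes had a median that rounded to 0, with Kifap3, which joins cargo to Kif3a and Kif3b, at -0.20. The 7 other IFT genes had a median of -0.07. The lowest of them, Ttc30b at -0.45, has close copies in Ttc30a1 and Ttc30a2, so that its level is less certain.

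RFX factors, the known binders of the X-box, had 5 of 7 genes tested and none past the threshold. Rfx3, a factor of cilium genes in many tissues, gave 1.92 and 2.36 FPKM in mutant tissue, beside 3.57, 2.88 and 2.94 FPKM in control tissue. Both mutants were below all controls (log2 change -0.39, SE 0.15, limma adjusted p = 0.22). Rfx2 was at -0.18 and Rfx5 at -0.12, while Rfx1, the highest of the family, was at 0.07 and Rfx7 at -0.03. Rfx4 and Rfx6 were below the filter and not tested. Rfx6 had both mutants above all controls, at 0.524 and 0.416 FPKM against 0.134, 0.107 and 0.110 FPKM.

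Hedgehog reception takes place at the primary cilium, and 0 of its 11 genes passed, against 2.36% of all genes tested. Their median log2 change was 0.06. Ptch1, the receptor and a target of the pathway, gave 16.0 and 16.2 FPKM in mutant tissue, beside 14.8, 17.8 and 16.5 FPKM in control tissue. Gli1, the most direct target, gave 26.3 and 21.2 FPKM against 21.0, 29.6 and 30.8 FPKM. For both the groups overlapped. Gpr161, a ciliary receptor that restrains the pathway, gave 5.18 and 5.001 FPKM, below controls at 6.14, 5.66 and 6.76 FPKM (log2 change -0.24, limma adjusted p = 0.35). Gli3, Hhip and Gli2 had log2 changes of 0.21, -0.26 and 0.21.

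Genes of the motile cilium, which share the IFT machinery, were mostly not expressed enough to be tested, with 5 of 17 tested. Tppp3, a tubulin-binding protein gene, fell (6.53 and 5.98 FPKM against 13.4, 11.3 and 9.86 FPKM; log2 change -0.78, SE 0.14, limma adjusted p = 0.0421). Ccno, of centriole amplification, Myb and Ccdc39 had log2 changes of -1.40, -0.66 and -0.37, and Tekt1 of 0.36, none past the threshold. Both mutants lay below all controls for Tppp3, Ccno, Myb and Ccdc39, or 4 of the 5 tested, against 24.4% of all genes tested. Tekt1 overlapped. Foxj1, the transcription factor that drives the motile cilium programme, read 0.702 and 0.463 FPKM against 0.959, 0.491 and 0.377 FPKM and was not tested. Among the other genes below the filter, Mcidas and Gmnc, regulators of multiciliated cells, had both mutants below all controls. Mcidas read 0.0270 and 0.0814 FPKM against 1.91, 0.495 and 0.746 FPKM, and Gmnc 0 and 0.0156 FPKM against 1.02, 0.300 and 0.188 FPKM. Drc1 had both mutants above all controls, at 0.189 and 0.381 FPKM against 0.140, 0.183 and 0.164 FPKM. The groups overlapped for the rest of those below the filter. Over all genes tested, 24.4% were lower and 13.2% higher without overlap, shares that do not include genes below the filter. Whether the motile genes differ from the members in their change was not tested.

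**Figure D4:**
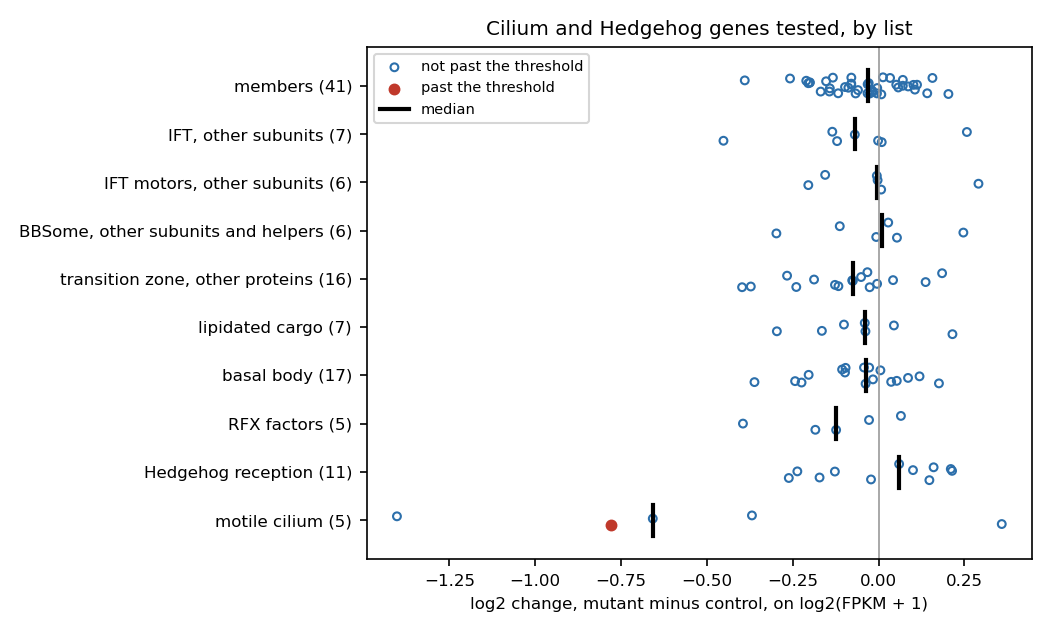
Log2 change of each gene tested, mutant minus control on log2(FPKM + 1), for the members, the lists of other cilium genes, Hedgehog reception and the motile cilium, with the number of genes tested in brackets; black bars are medians and filled red points passed the threshold. Tppp3 is the only filled point.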

How the data were processed

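Bulk RNA-seq of 2 mutant and 3 control libraries was used. The authors deposited 1 table of FPKM for 19699 gene entries, a unit that its name states. The genome is GRCm38 (mm10) per the submitters' processing notes. Aligner, counter, annotation, filters and strand setting: not given in the sources used here. Each FPKM gave whole reads to within 1e-05 of a read, with gene lengths equal to those of GENCODE M21 for 73.9% of 18885 genes and for 30 of the 41 members. Reads were used for depth and for voom only.

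Tests were run with limma 3.58.1 in R 4.3.3 on log2(FPKM + 1), two-sided, with a mean trend in eBayes and no covariate, and the steps were tested on simulated data. In full are given the members past the threshold, for each role those of smallest p and of highest and lowest mean, and Kif3a, Ift88, Dync2h1, Arl13b, Arl6 and Ift27. Of the other cilium lists, genes past the threshold and those of smallest p are named. Ift57, Tctn1, Tmem231, Tmem237, Lztfl1, Ccdc28b, Kifap3, Ttc30b, Tekt1, Mcidas, Gmnc and the further RFX genes were named after their values were seen. So were Drc1, Tbx4, Foxf1, Col1a1, Col3a1, Pdgfra, Upk3b, Wt1, Msln, Emcn, Hbb-y, Alas2 and Cdk1. The members and lists were chosen with earlier results of these data known. There were 16 alternatives. The intervals of promoter shares treat genes as independent draws. The values of 2 members are not reported here by name, though they enter the counts and medians.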

Additional observations from a re-analysis of the deposited data

How the results depend on the processing

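The count of members past the threshold was 0 in all 16 alternatives, and so was that of other cilium genes. The smallest adjusted p of any member over these ran from 0.139, without control replicate 2, to 0.708, without mutant replicate 2. The count of all genes, 303, was 69 with no filter, 67 with TPM, 131 with the Y-linked genes as a covariate and 615 with voom. It ran from 4 to 284 when 1 library was left out, with 4 and 11 without mutant replicate 1 and 2, where the lone mutant is assumed to vary like the controls. The members' median log2 change of -0.03 was -0.56 with TPM, a scale on which all genes moved to a median of -0.59. The entry Gm23935 took 7.69% to 64.8% of the FPKM sum, and TPM without it gave -0.10 for members and -0.13 for all genes. Relative to all genes the members were at 0.03 on FPKM, and from -0.01 without control replicate 2 to 0.06 without control replicate 1. Without 1 library the median ran from -0.13 to 0.04. It was 0.04 with median ratio scaling and 0.05 with quantile normalization, so the direction of the small median depends on the scaling. Signs of single members changed with the setting too, for up to 17 of 41, without mutant replicate 2. With the replicate number of the titles as a block, 0 members and 259 genes passed; only 2 numbers are shared, and nothing says that they pair the libraries. The filter at 5 FPKM kept 27 members. The share of members with the motif core, 54.3%, was 25.7% for the spaced repeat, a longer motif. With 2 mutants, differences well under 1.5-fold could not be told from the spread between libraries, and the lowest interval bound reached -1.01 without mutant replicate 1 and -2.25 with TPM.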
